A study of Mus musculus with 6 samples.

Results

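Asb11, Alox12b, Prss35, Mc4r and Syce2 are protein-coding genes that were lower in the hippocampus of sATF6-KI mice than in control mice, each by more than 1.5-fold. They were chosen by name for the size of their fall in this comparison, 5 genes of 17385 in the authors' deposited table. Among the 335 protein-coding genes that the authors' DESeq2 test called lower they hold ranks 1, 4, 6, 8 and 11 by fold change. They are thus 5 of the 11 protein-coding genes called lower by at least 1.5-fold, and not simply the 5 largest falls. A gene is called here when the authors' adjusted p is under 0.05.

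Both groups were C57BL/6 mice of 2 months, with 3 samples each, and messenger RNA of the hippocampus was sequenced. The sATF6-KI mice had the genotype Rosa26-sATF6-MER;Emx1-Cre. In them, a Cre recombinase under control of Emx1, a gene of the developing dorsal forebrain, switches on an sATF6-MER transgene at the Rosa26 locus, in which the short form of ATF6 is fused with MER. Control mice carried the Cre alone, written Emx-Cre or EMX1-Cre in the labels, so every sample of the study has the Cre. Parts of a modified estrogen receptor such as MER are generally used to make a protein depend on a ligand. Whether the mice were given one is not stated in the sources used here. Hippocampal tissue also holds interneurons, microglia and vessel cells, which largely do not descend from Emx1 cells, so a value for the tissue mixes cells with and without the allele.

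ATF6 is a membrane protein of the endoplasmic reticulum (ER). When unfolded proteins build up there, it moves to the Golgi and is cleaved, and its cytosolic part, the short form, enters the nucleus and, together with the factor NF-Y, switches on genes for ER chaperones. It is best known as an activator. The 5 genes share no pathway. Asb11 belongs to a ubiquitin ligase, Alox12b makes lipids of the skin barrier, Prss35 is a secreted relative of the serine proteases, Mc4r is a hormone receptor, and Syce2 is a structural protein of meiotic chromosomes.

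All values of single genes come from the authors' deposited table, which gives a mean level over all libraries and 1 comparison. The level is the authors' baseMean, a normalized expression signal that is not corrected for gene length. An error after ± is the Wald standard error of the log2 fold change, and intervals are 95% Wald intervals. Both were computed here, the error as the deposited log2 fold change divided by the deposited Wald statistic. The standard error that the authors deposited is a different value, 0.10 to 0.11 for the 5 genes. Where a value with ± is credited to the deposited table, the credit covers the log2 fold change. Values per library are not shown, because the 6 columns that hold them bear names that match no sample label. The study's design text gives 3 mice a group, while the labels do not name the animal of each sample. The p-values measure the spread between these samples. The depth per sample, that spread itself and any overlap of the groups are therefore unknown here. Since the 5 genes were picked for their fold change, their falls are given as a description without a test.

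Known target genes of ATF6 were looked up in the same table as a check. All 8 of a list of known ATF6 targets rose in the authors' deposited table, with a median log2 fold change of 2.66, against 0.00 over all genes. Markers of hippocampal glutamatergic neurons were all present, with 10 of 10 measured at a baseMean of 327 to 159768 in the authors' deposited table. By the authors' DESeq2 test none of them passed the adjusted threshold, 3 were lower at unadjusted p under 0.05, and their median log2 fold change was -0.10. Of 12 choroid plexus markers 11 were called higher by the authors' DESeq2 test, against 3.41% of all genes. Their median log2 fold change was 0.47, with a summed baseMean of 221625 in the authors' deposited table. The part of choroid plexus in the results below was not tested. Of the other brain cell types, 1 of 5 microglia markers was called lower, P2ry12, a receptor for ADP, against 1.93% of all genes. None of 6 interneuron, 5 astrocyte, 5 oligodendrocyte or 4 endothelial markers passed the authors' adjusted threshold (DESeq2). With unadjusted p under 0.05 these 4 lists held 0, 2, 1 and 1 genes.

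Asb11 (ENSMUSG00000031382) showed the largest fall of any called gene. ASB proteins carry ankyrin repeats and a SOCS box, with which they bring substrates to a ubiquitin ligase built on cullin 5. In human cells ASB11 has been described as the receptor that sends the cell death protein BIK to degradation, and in zebrafish the gene acts on the Notch ligand Delta in neural precursors. Asb11 lies on chromosome X from 164436994 to 164459170 on the plus strand in GENCODE M21 (GRCm38), with 3 annotated transcripts of up to 7 exons. Its log2 fold change was -1.34 ± 0.26 in the authors' deposited table, which is 2.53-fold lower with an interval of 1.78 to 3.59. Its baseMean was 64.2 in the authors' deposited table, at percentile 22.5 of all genes. With 3 samples a group and the fold change taken as a ratio of group means, these values from the authors' deposited table imply a level of 36.4 in sATF6-KI and 92.0 in control.

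Alox12b (ENSMUSG00000032807) is known from the epidermis. It encodes a 12R-lipoxygenase that oxidizes linoleate bound to ceramides, a step needed for a tight skin barrier, and its loss in humans causes ichthyosis. The gene lies on chromosome 11 from 69156989 to 69169792 on the plus strand in GENCODE M21 (GRCm38), with 1 annotated transcript of 15 exons. In the authors' deposited table it was 1.88-fold lower, with an interval of 1.47 to 2.40, a log2 fold change of -0.91 ± 0.18. The baseMean of 183 in the authors' deposited table implies a level of 127 in sATF6-KI and 239 in control.

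Prss35 (ENSMUSG00000033491) encodes a secreted protein with the fold of a serine protease that is thought to be inactive, and is known from the mouse ovary. It lies on chromosome 9 from 86743649 to 86758443 on the plus strand in GENCODE M21 (GRCm38), with 2 annotated transcripts of up to 3 exons. Its log2 fold change was -0.74 ± 0.14 in the authors' deposited table, or 1.67-fold lower with an interval of 1.38 to 2.03. Its baseMean of 254 in the authors' deposited table implies 190 in sATF6-KI and 318 in control.

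Mc4r (ENSMUSG00000047259) encodes the melanocortin 4 receptor, which raises cyclic AMP when it binds alpha-MSH. It is best known for the control of food intake by the hypothalamus, and is present in the hippocampus as well. It is a gene of 1 exon on chromosome 18 in GENCODE M21. The authors' deposited table has Mc4r 1.55-fold lower, with an interval of 1.20 to 2.01, a log2 fold change of -0.63 ± 0.19. Its baseMean of 160.2 in the authors' deposited table implies a level of 126 in sATF6-KI and 195 in control.

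Syce2 (ENSMUSG00000003824) encodes a protein of the central element of the synaptonemal complex, the scaffold that holds paired chromosomes together in meiosis. It lies on chromosome 8 from 84872111 to 84888221 on the plus strand in GENCODE M21 (GRCm38), with 4 annotated transcripts of up to 5 exons. In the authors' deposited table it was 1.52-fold lower, with an interval of 1.20 to 1.93, a log2 fold change of -0.60 ± 0.18. The baseMean of 151 in the authors' deposited table implies a level of 119.9 in sATF6-KI and 182 in control.

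The 95% intervals of the 5 falls overlapped one another, and since the genes were chosen by these values the differences between the falls were not tested. Divided by the exonic length of GENCODE M21, the mean levels of 4 of them came close together. Syce2 had a baseMean per kilobase of 76.7, Alox12b 75.2, Prss35 73.7 and Mc4r 57.2, at percentiles 32.3, 32.0, 31.6 and 27.8 of the protein-coding genes. Asb11 was the weakest at 22.5 per kilobase, at percentile 17.3. No spread over samples is known for these levels. In bulk tissue, fewer cells of a type and less RNA per cell cannot be told apart.

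**Figure D1:**
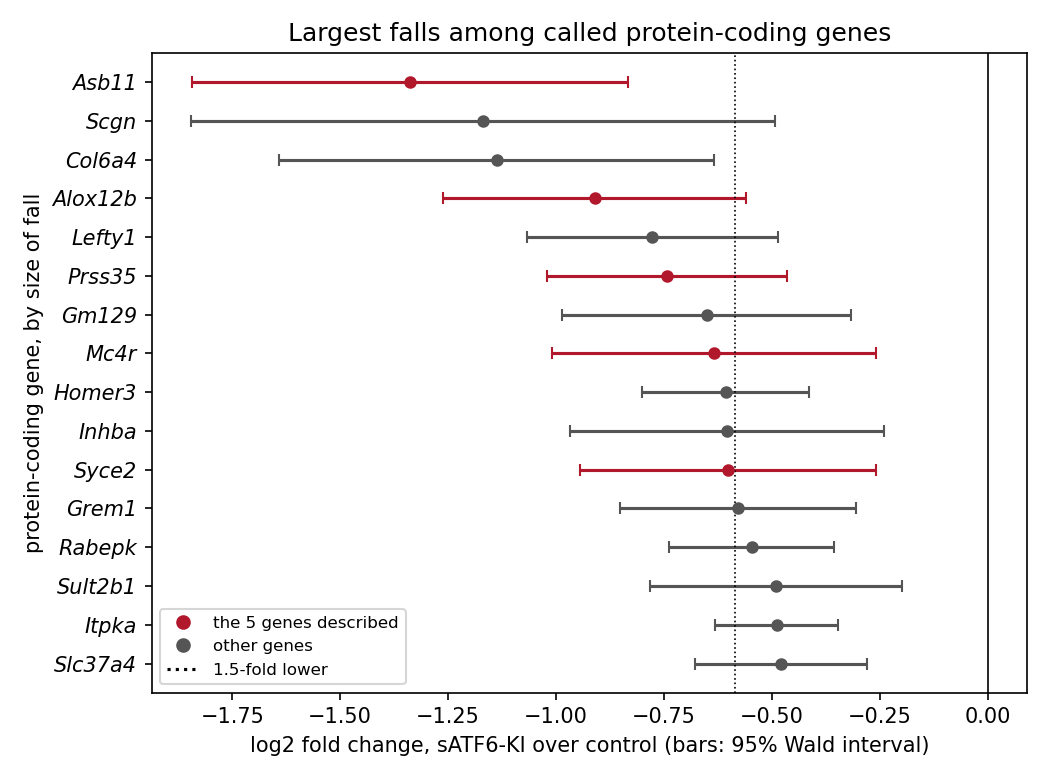
Log2 fold change, sATF6-KI over control, of the 16 protein-coding genes with the largest falls among those called lower (points, with 95% Wald intervals from the authors' deposited table; red for the 5 genes described, grey for others; dotted line at 1.5-fold lower). Asb11 stands at -1.34 and Syce2 at -0.60, just inside the dotted line, while Grem1 at -0.58 stands just outside it. No interval reaches 0, which follows from showing called genes alone.

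The choice of members leaves out neighbours in the same ranking. Scgn, a calcium sensor, and Col6a4, a collagen chain, stood at ranks 2 and 3 with log2 fold changes of -1.17 ± 0.34 and -1.14 ± 0.26 in the authors' deposited table. Lefty1, an antagonist of TGF-beta family signals, stood at rank 5 with -0.78 ± 0.15 in the authors' deposited table. Gm129, a repressor in the circadian clock whose GENCODE M21 name is Ciart, had -0.65 ± 0.17 in the authors' deposited table. Homer3, a postsynaptic scaffold protein, had -0.61 ± 0.10 and Inhba, an activin subunit, -0.60 ± 0.19 there. Syce2, 1.52-fold lower, was the last gene inside the limit of 1.5-fold, and Grem1, a secreted BMP antagonist, the first outside, its fall being 1.49-fold.

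All 5 genes were called by the authors' DESeq2 test, as their choice required, in a table where 1.93% of all genes and 2.16% of protein-coding genes were called lower, and 0.0633% lower by at least 1.5-fold. Their baseMean, which is not per length, was below that of most lowered genes. The 336 genes called lower had a median baseMean of 5022 and a median fall of 1.19-fold in the authors' deposited table, while the 5 genes had a median baseMean of 160.2 and a median fall of 1.67-fold. With all genes ranked by baseMean and cut into 4 groups of equal size, 248 of the called falls were in the highest group, 65 and 21 in those below it, and 2 in the lowest. Asb11 is one of those 2, Scgn being the other, and the remaining 4 of the 5 genes are among the 21. Within the range of levels that the 5 genes span, 2359 genes were listed, of which 11, or 0.466%, were called lower and 82, or 3.48%, higher. The 5 genes, whose levels set this range, are themselves among the 11.

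With the errors of these genes, only sizeable falls could pass. A call needed a Wald statistic of at least 3.00 in size, which at the error of Asb11 is a log2 change of 0.77. For Alox12b, Prss35, Mc4r and Syce2 the same limit was 0.54, 0.43, 0.57 and 0.53. Mc4r with -0.63 and Syce2 with -0.60 in the authors' deposited table therefore stood close to it, and Asb11 with -1.34 well past it. The median Wald error of genes at the level of the 5 was 0.18, and the Wald errors of the 5 genes were 0.14 to 0.26. Their deposited standard errors were 0.10 to 0.11. A further 175 genes had a fall at least as large as that of Syce2 without a call, at a median baseMean of 8.57 in the authors' deposited table. Cyct, a testis cytochrome c, was the extreme protein-coding case with -2.42 ± 1.74 at a baseMean of 2.12 in the authors' deposited table, and its fall could not be told from 0 at this precision.

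**Figure D2:**
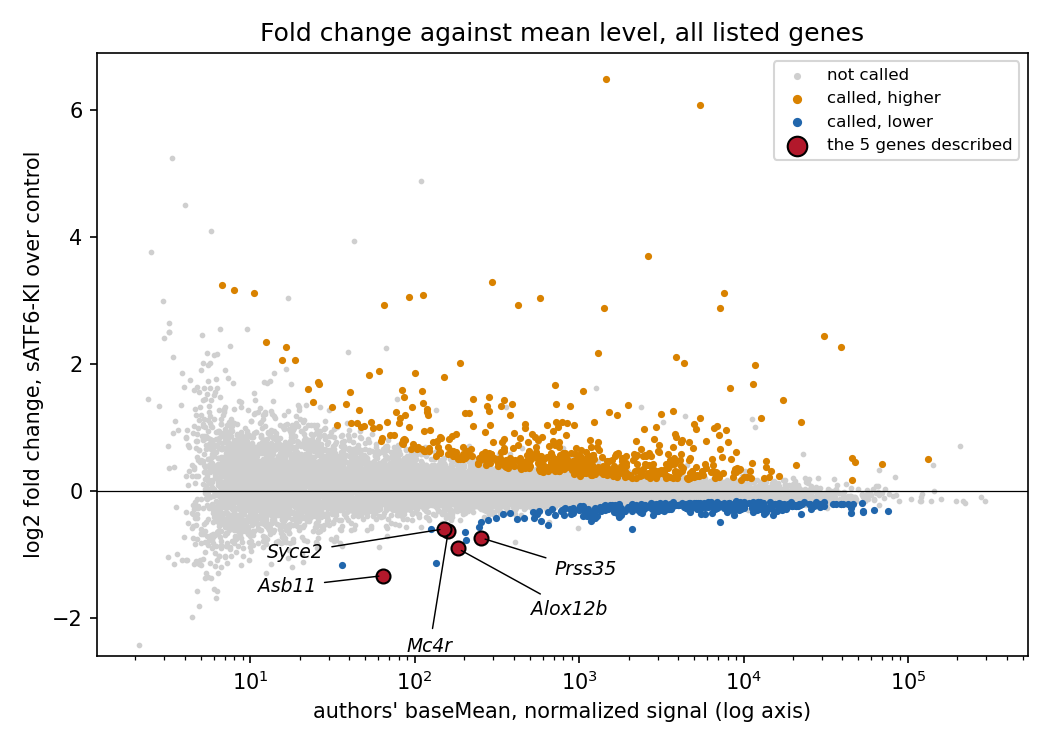
Log2 fold change, sATF6-KI over control, against the authors' baseMean (log axis) for all 17385 listed genes (grey, not called; blue, called lower; orange, called higher; red, the 5 genes described). The 5 genes lie at a baseMean of 64.2 to 254, left of most of the 336 genes called lower, and the falls get smaller to the right.

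Sequence at the annotated starts was compared with the elements that ATF6 is known to bind. Promoter windows of RefSeq (GRCm38.p6), running from 250 bases before to 50 after a transcript start, were available for 4 of the 5 genes. They are shown with that of Calr, the gene for the ER chaperone calreticulin, which lies 25.2 kb from Syce2. Capitals mark, on either strand, the parts CCAAT and CCACG of the ER stress response element and the letters TGACGTG, the core of another element described for ATF6. The windows are chrX:164436744-164437043 for Asb11, chr11:69156822-69157121 for Alox12b, chr9:86743383-86743682 for Prss35 and chr8:84871861-84872160 for Syce2, all on the plus strand, and chr8:84846882-84847181 on the minus strand for Calr.
Asb11: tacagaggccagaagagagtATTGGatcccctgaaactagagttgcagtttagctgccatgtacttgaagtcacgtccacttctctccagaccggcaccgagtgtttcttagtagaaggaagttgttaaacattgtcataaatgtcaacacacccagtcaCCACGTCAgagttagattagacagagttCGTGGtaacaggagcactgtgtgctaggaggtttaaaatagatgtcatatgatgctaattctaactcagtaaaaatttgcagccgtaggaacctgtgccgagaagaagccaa
Alox12b: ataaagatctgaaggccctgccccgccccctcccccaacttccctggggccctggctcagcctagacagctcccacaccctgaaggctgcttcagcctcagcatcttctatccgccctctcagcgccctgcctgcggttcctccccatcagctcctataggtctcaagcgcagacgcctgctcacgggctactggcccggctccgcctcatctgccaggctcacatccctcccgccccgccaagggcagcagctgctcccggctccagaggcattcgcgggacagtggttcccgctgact
Prss35: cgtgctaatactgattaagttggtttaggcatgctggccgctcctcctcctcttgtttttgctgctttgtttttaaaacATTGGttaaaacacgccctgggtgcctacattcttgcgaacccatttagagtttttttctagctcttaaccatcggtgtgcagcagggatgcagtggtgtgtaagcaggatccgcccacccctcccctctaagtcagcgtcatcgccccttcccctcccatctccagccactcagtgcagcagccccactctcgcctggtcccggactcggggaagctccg
Syce2: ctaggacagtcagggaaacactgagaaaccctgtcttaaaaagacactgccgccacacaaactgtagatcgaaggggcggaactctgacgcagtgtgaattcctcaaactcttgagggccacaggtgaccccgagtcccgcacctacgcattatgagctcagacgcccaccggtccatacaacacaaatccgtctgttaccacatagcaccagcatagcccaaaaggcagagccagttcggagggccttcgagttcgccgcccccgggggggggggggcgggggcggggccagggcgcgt
Calr: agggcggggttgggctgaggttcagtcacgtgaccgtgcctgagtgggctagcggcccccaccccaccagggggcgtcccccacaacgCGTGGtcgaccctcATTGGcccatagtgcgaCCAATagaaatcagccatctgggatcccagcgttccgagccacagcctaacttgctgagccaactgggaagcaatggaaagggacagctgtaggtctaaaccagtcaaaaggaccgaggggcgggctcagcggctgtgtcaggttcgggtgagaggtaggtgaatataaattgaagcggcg

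The full element, CCAAT followed after 9 bases by CCACG, was in the window of Calr, 162 bases before its start on the reverse strand, and in none of the 4 members' windows. It was in the windows of 20 of 11772 listed genes with a RefSeq window, or 0.170%. Genes called higher held 12 of these among 442, or 2.71%, and the 251 called lower held none. The shorter second element, ATTGG followed after 1 base by CCACG, was in 0.0680% of all genes' windows and likewise in no member's. Asb11 had the parts away from each other, with CCAAT on the reverse strand 230 bases before the start and CCACG 90 bases before on the forward strand and 62 before on the reverse. Its TGACGTG match, on the reverse strand, overlaps the CCACG at 90 bases. TGACGTG was in 3.02% of all genes' windows, and in 5.18% of those of genes called lower and 3.85% of those of genes called higher. Prss35 had a single CCAAT on the reverse strand, 171 bases before its start, and the windows printed for Alox12b and Syce2 had no match. The window of a second annotated Syce2 start, not printed, had 2 matches to CCACG. Single parts are common, with CCAAT in 42.2% and CCACG in 50.1% of all genes' windows. These matches describe letters in a short window, and no binding was measured.

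Relatives and partners of each gene were then examined, in lists that leave out the 5 genes themselves. Of 23 genes of the ASB family and its cullin 5 ligase, 17 were measured. The authors' DESeq2 test called none, and had 1 of them higher and 0 lower with unadjusted p under 0.05. In all genes 5.34% were called in either direction, 1.93% lower and 3.41% higher, and these shares stand beside each list below as well. The median of the ASB list was -0.05 in log2 fold change, against 0.00 over all genes. Its values ran from -0.16 to 1.10. Asb5, another family member, was at 1.10 ± 0.39 in the authors' deposited table (authors' DESeq2 adjusted p = 0.0713) and Asb1 at -0.16 ± 0.08 (authors' DESeq2 adjusted p = 0.323). Cul5, the cullin scaffold itself, was at -0.09 ± 0.08 in the authors' deposited table. Asb11 at -1.34, chosen for its fall, was the only called gene among the ASB genes measured.

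Among lipoxygenases and skin barrier lipid enzymes 14 of 17 were measured, with 1 called higher and none called lower by the authors' DESeq2 test, and a median log2 fold change of 0.16. The 1 that rose was Aloxe3, whose enzyme takes the product of Alox12b to the next step in the epidermis, at 0.39 ± 0.11 in the authors' deposited table (authors' DESeq2 adjusted p = 0.0186). Abca12, a lipid transporter of keratinocytes, was at 1.24 ± 0.58 and Ltc4s, which makes a leukotriene, at 0.32 ± 0.16 in the authors' deposited table (authors' DESeq2 adjusted p = 0.249 and 0.307). Of 7 keratinocyte markers 4 were measured, at a baseMean of 37.1 to 419 (sum 1033) in the authors' deposited table, with a median log2 fold change of 0.05. The authors' DESeq2 test gave 0 of them an unadjusted p under 0.05 and called none.

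Extracellular serine proteases and their serpin inhibitors had 12 of 18 measured, with a median log2 fold change of -0.10. Of these, 2 were called lower and none higher, against 1.93% and 3.41% of all genes. Klk8, known as neuropsin, a protease that acts at hippocampal synapses, fell, at -0.47 ± 0.13 (log2) in the authors' deposited table (authors' DESeq2 adjusted p = 0.0146). Prss12, known as neurotrypsin, which cleaves agrin, fell too, at -0.33 ± 0.09 there (authors' DESeq2 adjusted p = 0.0112). Both falls were smaller than that of Prss35, at -0.74 ± 0.14 in the authors' deposited table, and the difference was not tested. Serpine2, an inhibitor of thrombin and plasminogen activators, was at -0.20 ± 0.08 and Htra1 at -0.11 ± 0.07 in the authors' deposited table (authors' DESeq2 adjusted p = 0.111 and 0.467).

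In the melanocortin system 15 of 19 genes were measured, with 1 called higher, 1 called lower and a median log2 fold change of 0.04. Mrap2, an accessory protein that binds the melanocortin 4 receptor and changes its signalling, rose 1.49-fold in the authors' deposited table, a log2 fold change of 0.58 ± 0.17 (authors' DESeq2 adjusted p = 0.0246). Mgrn1, a ubiquitin ligase known to dampen melanocortin receptor signalling, fell, at -0.22 ± 0.06 in the authors' deposited table (authors' DESeq2 adjusted p = 0.0174). Gnas, which encodes the G protein subunit that couples the receptor to cyclic AMP, was at -0.13 ± 0.07 and Adcy3, an adenylyl cyclase, at 0.11 ± 0.06 (authors' DESeq2 adjusted p = 0.276 and 0.388). Mc3r, the other melanocortin receptor of the brain, was at 0.78 ± 0.59 with a baseMean of 17.4 in the authors' deposited table.

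Since Mc4r is known best from the hypothalamus, markers of that region were looked at beside it. Of 8 hypothalamic genes 7 were measured, and the authors' DESeq2 test called none, with 1 higher at unadjusted p under 0.05, the orexin gene Hcrt. Their median log2 fold change was 2.01, with a range of 0.06 to 4.88 and a summed baseMean of 1600 in the authors' deposited table. Most of that sum was Npy, with a baseMean of 1387, at 0.06 ± 0.10 in the authors' deposited table. The median was the value of Agrp, at 2.01 ± 1.30 with a baseMean of 5.14 there. Avp, the vasopressin gene, was at 4.88 ± 2.51 and Oxt, the oxytocin gene, at 3.94 ± 3.16 in the authors' deposited table, so these values had errors of several fold. Mc4r, at -0.63, stood on the other side of 0. The part of such tissue in its value was not tested.

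For Syce2 the list was the synaptonemal complex and meiotic recombination, with 12 of 20 genes measured, 1 called higher, none lower and a median log2 fold change of 0.08. Sycp2, a protein of the lateral elements of the complex, rose 3.62-fold in the authors' deposited table, a log2 fold change of 1.86 ± 0.22 (authors' DESeq2 adjusted p = 3.92e-15). Its baseMean was 100.1 in the authors' deposited table. Among measured genes of this complex Sycp2 was thus called higher, while Syce2, called lower, was chosen for its fall. Spo11, which makes the meiotic double-strand breaks, was at 1.26 ± 0.56 and Rec8, a meiotic cohesin, at 0.33 ± 0.20 (authors' DESeq2 adjusted p = 0.213 and 0.447). Syce1, a central element protein like Syce2, was at 0.52 ± 0.77 with a baseMean of 6.41 in the authors' deposited table. Of 5 germ cell markers 4 were measured, with a median of -0.10, and the authors' DESeq2 test gave 0 of them an unadjusted p under 0.05 and called none. Skeletal muscle markers, looked at because ASB genes are known from muscle, gave the same count, with 4 of 6 measured and a median of -0.03.

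**Figure D3:**
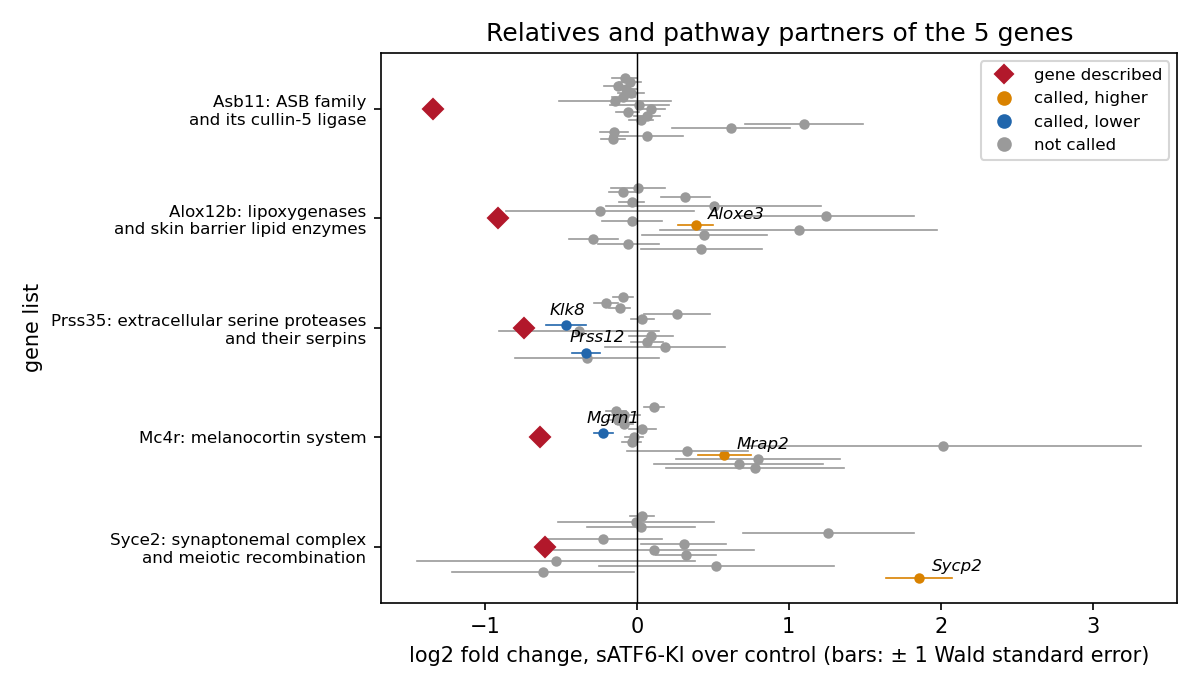
Log2 fold change, sATF6-KI over control, of the measured members of 5 gene lists (points with ± 1 Wald standard error; orange, called higher; blue, called lower; grey, not called), with the gene described in each row as a red diamond. The called partners are Aloxe3 at 0.39, Klk8 at -0.47, Prss12 at -0.33, Mgrn1 at -0.22, Mrap2 at 0.58 and Sycp2 at 1.86. The first row has none. The red diamonds lie left of the called partners in their rows, which reflects the choice of these genes for the size of their fall.

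The genes that lie beside the 5 on the chromosome were examined next, 3 measured genes on either side by their order in GENCODE M21. Of these 30 neighbours 4 were called higher by the authors' DESeq2 test, in a table where 3.41% of genes were called higher. The 4 that rose were Piga, Aloxe3, Gcdh and Calr. For 3 of the 5 genes, the measured gene directly next to it was higher. Over 17166 genes with a position, 6.68% had a gene called higher directly next to them on either side, and so did 20 of the 336 genes called lower, or 5.95%. Among the 11 protein-coding genes that fell by at least 1.5-fold there were 3 such genes, and these are the same 3. With so few genes this is a description of 3 places in the genome.

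Piga, the catalytic subunit of the enzyme that starts GPI anchor synthesis at the ER, ends 3.08 kb before the start of Asb11 on the same strand. It rose 1.81-fold in the authors' deposited table, a log2 fold change of 0.85 ± 0.12 (authors' DESeq2 adjusted p = 5.98e-10), beside -1.34 ± 0.26 for Asb11. The next gene before it, Vegfd, had an unadjusted p under 0.05 without a call, at -0.36 ± 0.17 in the authors' deposited table (authors' DESeq2 adjusted p = 0.264), and Mospd2, the nearest measured gene after Asb11 at 477 kb, was at 0.05 ± 0.09. The rise next to Asb11 was thus seen at Piga and not called at the 5 other measured neighbours.

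Aloxe3, described above, lies 7.87 kb before Alox12b on the same strand, and Alox8, a further lipoxygenase on the opposite strand 14.1 kb after it, was at -0.29 ± 0.16 in the authors' deposited table (authors' DESeq2 adjusted p = 0.387). The third measured gene before Alox12b, 9130213A22Rik at 34.4 kb, had an unadjusted p under 0.05 without a call, at -0.86 ± 0.34 in the authors' deposited table (authors' DESeq2 adjusted p = 0.127). In this stretch the 3 lipoxygenase genes stood at 0.39, -0.91 and -0.29 in their order along the chromosome, in the authors' deposited table.

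Syce2 lies in a gene-dense stretch. Its last 1829 bases overlap Gcdh, a mitochondrial enzyme of lysine breakdown on the opposite strand, which rose 1.30-fold in the authors' deposited table, at 0.38 ± 0.08 (authors' DESeq2 adjusted p = 0.000105). The library kit keeps strand, but no source used here states the strand setting of the counting. How reads of the overlap were counted is therefore unknown, and both values are uncertain. Farsa, a tRNA synthetase subunit that ends 2.85 kb before Syce2, was at -0.08 ± 0.08 in the authors' deposited table. Calr rose 2.11-fold in the authors' deposited table, at 1.08 ± 0.06 (authors' DESeq2 adjusted p = 6.82e-77).

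Around Prss35 and Mc4r no neighbour among the 3 on either side was called by the authors' DESeq2 test. Of these 12, 2 had an unadjusted p under 0.05, Me1 at -0.15 ± 0.07 and Rwdd2a at -0.22 ± 0.09 in the authors' deposited table, both on the upstream side of Prss35. Snap91, a clathrin assembly protein of synapses 7.48 kb from Prss35, was at -0.06 ± 0.06 in the authors' deposited table, and the antisense transcript A330041J22Rik on the other side at -0.03 ± 0.37. Mrap2, described above with the melanocortin system, is the fourth measured gene after Prss35, 386 kb away. Other genes farther out were called as well. Among them Per1 and Vamp2, before Alox12b, were higher, at 1.14 ± 0.07 and 0.16 ± 0.05 in the authors' deposited table. Tbx18, after Prss35, was higher at 0.66 ± 0.21 and Grp, after Mc4r, lower at -0.33 ± 0.10 there. Mc4r stands alone, with its nearest measured neighbours Gnal, a G protein subunit, at 228 kb and Pmaip1, the cell death gene Noxa, at 392 kb. They were at 0.05 ± 0.10 and -0.27 ± 0.24 in the authors' deposited table.

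**Figure D4:**
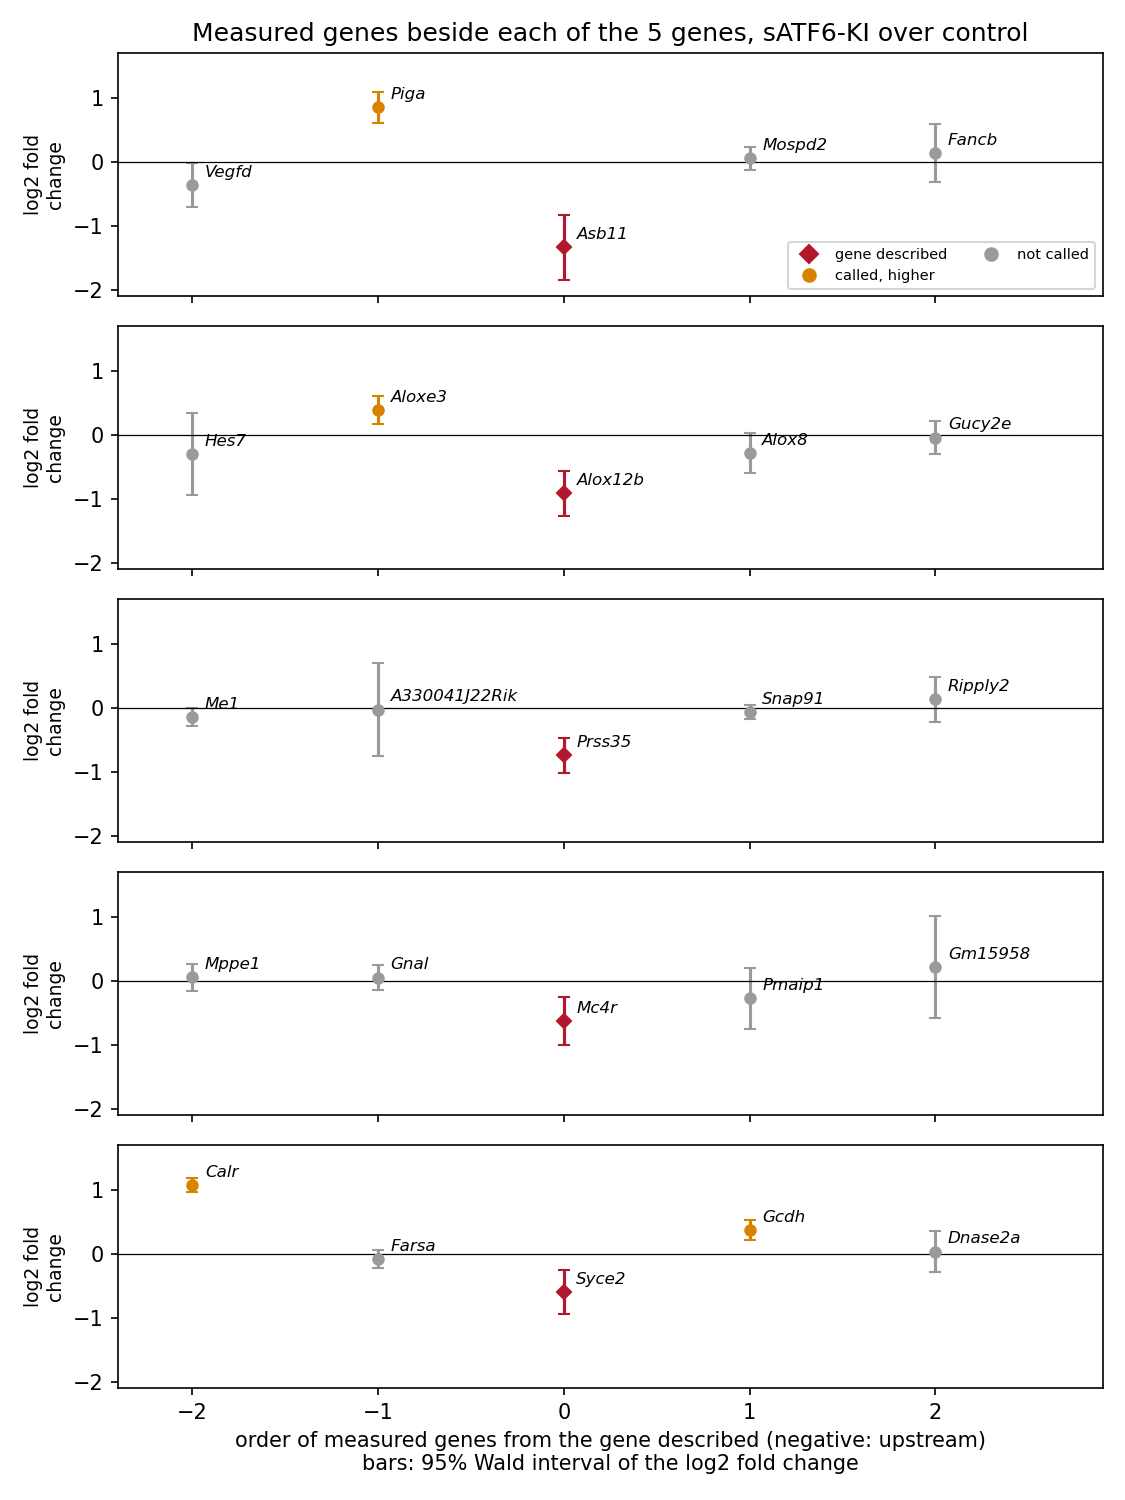
Log2 fold change, sATF6-KI over control, of each of the 5 genes (red diamond, position 0) and of the 2 nearest measured genes on either side in their order along the chromosome (orange, called higher; grey, not called; bars, 95% Wald intervals). Piga at 0.85, Aloxe3 at 0.39 and Gcdh at 0.38 stand directly beside Asb11, Alox12b and Syce2, and the rows of Prss35 and Mc4r have no called neighbour.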

How the data were processed

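Hippocampal messenger RNA was measured in 3 sATF6-KI and 3 control samples. The submitters' processing notes name STAR, HTSeq, DESeq2, Trim Galore and cutadapt; no version, genome build, annotation or strand setting is stated in the sources used here. Per the file headers, the authors deposited 1 comparison with a baseMean (a normalized signal), a log2 fold change with a standard error on the log2 scale, a Wald score, a p-value and an adjusted p-value. A further 6 columns of values per library match no sample label and were not used, so the planned edgeR and limma fits gave way to the authors' DESeq2 comparison.

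A normal p computed from the Wald statistic was within 2.89e-15 of the deposited p-value. The error used is the log2 fold change divided by that statistic (median 0.10), since the deposited error (median 0.08) does not go with it. Lists were described by counts of calls at adjusted p under 0.05. Of the table's IDs, 17166 matched GENCODE M21. Scripts used scipy 1.17.1, numpy 2.4.6, pandas 2.3.3 and matplotlib 3.10.9 under Python 3.11.15, and were tested on simulated data. The 5 genes and the lists were chosen with earlier results of these data known. Genes were named by a rule: the 5 genes, ranks 6 to 10 of the falls, called genes of the lists with the 2 nearest the threshold, and called or nearest neighbours. Outside it, Scgn, Col6a4, Lefty1, Grem1, Cyct, Cul5, Mc3r, Syce1, Sycp3, Syce1l, Npy, Agrp, Avp, Oxt, Vegfd, 9130213A22Rik, Me1, Rwdd2a, Per1, Vamp2, Tbx18 and Grp were chosen after their values were seen. Mc4r is given without coordinates or sequence, and 1 gene that the rule would name is not reported here.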

Additional observations from a re-analysis of the deposited data

How the results depend on the processing

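Settings varied were the thresholds, the fold minimum, the level filter, coding genes alone, the deposited error and the ranking; for the 5 genes all but the fold minimum, and for neighbours the threshold of 0.01 and the coding genes alone, were chosen after seeing the data. The 336 genes called lower were 135 at an adjusted p threshold of 0.01, 529 at 0.1, 34 by Bonferroni and 11 at 1.5-fold or more; the 592 called higher were 379 at 0.01, 234 by Bonferroni and 206 at 1.5-fold or more. Of the 5 genes, 3 were called at 0.01 and 3 by Bonferroni, in both cases Asb11, Alox12b and Prss35 and not Mc4r or Syce2, and all 5 under the other settings run. At 0.01 the called partners were 0 for the lipoxygenase list, 0 for the proteases and 0 in each direction for the melanocortin system, and at 0.1 the ASB list had 1 higher; Sycp2 alone kept its call at 0.01. Neighbours called higher were 4 at 0.1, 4 with coding genes alone and 3 at 0.01. These settings tighten or loosen the call by construction. Ranked by the Wald statistic the 5 genes stood at 14 (Asb11), 17 (Alox12b), 11 (Prss35), 207 (Mc4r) and 175 (Syce2), and the deposited errors were 0.11, 0.11, 0.10, 0.11 and 0.11 in that order. No paired analysis was possible because the columns per library carry no replicate number of any sample. For the same reason, fits of counts, other normalizations and pseudocounts, and fits without single replicates were not run, and what 1 sample contributes to any value is not known here.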
